A study of Mus musculus with 28 samples.

Results

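Livers labelled as carrying a macrophage knockout of NFATc3 (NFATc3-MKO) were compared with livers labelled Lyz2-Cre, to ask how whole-liver RNA differs between the 2 genotypes on a diet that brings on steatohepatitis. The 8 livers, 4 of each genotype, were taken by their genotype label from the 28 samples of the series, and every gene that passed an expression filter was examined. All 8 came from male mice that started a methionine- and choline-deficient diet at 8 weeks of age and stayed on it for 4 weeks. The controls carry Lyz2-Cre, a Cre recombinase under the lysozyme 2 gene, which is active in macrophages, monocytes and neutrophils; the labels do not name the Cre line of the knockout mice. The other 8 livers of the table, from ASK1-MKO mice (ASK1 macrophage knockout) and MDKO mice (NFATc3 and ASK1 double knockout) on the same diet, entered the expression filter and the shared estimate of the spread but not the contrast. Nothing in the labels says that each library came from a separate animal, so p-values measure only the spread between these samples.

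NFATc3 is a transcription factor that waits in the cytoplasm in a phosphorylated form. A rise in calcium activates the phosphatase calcineurin, which strips the phosphates and lets NFAT enter the nucleus and bind GGAAA sequences, and one of its classic targets, Rcan1, encodes an inhibitor of calcineurin. A diet without methionine and choline blocks the making of phosphatidylcholine and the export of fat in lipoproteins, and livers on it become fatty, inflamed and scarred, with new bile duct-like cells.

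Total counts ran from 20601168 to 30834547 per liver, and 13309 of the 17752 genes in the table were tested. Levels are in CPM (counts scaled to a common library size), and values listed by group are in the order of livers 1 to 4. Albumin, the main protein that hepatocytes secrete, made up 57914 to 106581 CPM, and all 16 hepatocyte markers of a list chosen for this work were detected. Mitochondrial transcripts took 13.3% to 15.8% of the counts in Lyz2-Cre livers and 13.5% to 17.5% in NFATc3-MKO livers. A pair of livers lay toward the other group in many genes, NFATc3-MKO liver 1 near the controls and Lyz2-Cre liver 2 near the NFATc3-MKO livers. Counts that rest on this pair are also given with either of them left out, never both together. By the share of genes in which a liver was the farthest from its group mean, other livers lay farther out. NFATc3-MKO liver 3 was the farthest from its group mean for 40.8% of genes, against 26.7% for liver 1. Lyz2-Cre liver 1 was the farthest for 34.3%, against 33.1% for liver 2. By mean correlation with the rest of its group, NFATc3-MKO liver 1 was the lowest (0.9657, against 0.9665 for liver 3). Lyz2-Cre liver 2 was the lowest control by this measure (0.9796, against 0.981 for liver 1).

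The targeted gene was examined first. Nfatc3 (ENSMUSG00000031902, chromosome 8, 106058840 to 106130537 in mm10, plus strand) stood at 30.6, 37.1, 39.8 and 37.6 CPM in Lyz2-Cre and 31.5, 31.1, 19.6 and 30.9 CPM in NFATc3-MKO livers. NFATc3-MKO liver 3 was the lowest of the 8, the other 3 of its group lay just above the lowest control, and the groups overlapped. The difference did not pass the test (log2 change −0.36 ± 0.14 SE, edgeR adjusted p = 0.12), and the two-sided exact permutation p over the 70 assignments of 4 and 4 livers was 0.114, where 0.0286 is the smallest possible. Whole liver holds many cells that a macrophage knockout does not touch, so these values do not check the label, and directions below refer to livers labelled with a genotype.

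Of the 13309 genes, 1124 (8.45%) changed at an edgeR adjusted p under 0.05, of which 502 (3.77%) rose and 622 (4.67%) fell in NFATc3-MKO livers. The change was 2-fold or more for 158 genes that rose and 119 that fell, and the median log2 change of all genes tested was 0.03. The 4 and 4 livers did not overlap for 1704 genes (12.8%), 773 higher (5.81%) and 931 lower (7%) in NFATc3-MKO livers, and 910 of the 1124 called genes were among them. Leaving out 1 liver at a time left 268 (without Lyz2-Cre liver 3) to 1585 calls (without NFATc3-MKO liver 1), with 722, 377 and 602 calls without Lyz2-Cre livers 1 and 4 and NFATc3-MKO liver 3. Fitted without the ASK1-MKO and MDKO livers, 218 genes were called. A set of 251 genes, 87 that rose and 164 that fell, was called whichever of the 8 livers was left out. These 251 are called stable below, and 245 of them did not overlap between the groups. Stable refers only to leaving out 1 liver from the fit with all groups. Fitted with only the 2 groups, 172 of the 251 were still called. Dnaja1, Srd5a1, Ahr and Hnf4a were among those that were not.

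Among the 12 genes that rose most with no overlap were 3 hydroxysteroid sulfotransferases and 3 immunoglobulin heavy chain genes, described below. The others were Fmn2, an actin nucleator, Far2, a fatty acyl-CoA reductase, Pnldc1, an exonuclease that trims piRNAs, Klc3, a kinesin light chain, Fbf1, a protein of the cilium base, and 4930438A08Rik. Their log2 changes ran from 2.06 (Pnldc1) to 2.45 (4930438A08Rik). Fmn2, Far2 and Pnldc1 were stable, whereas 4930438A08Rik lost its call without Lyz2-Cre liver 4 (edgeR adjusted p = 0.0514), and Klc3 and Fbf1 lost theirs without 3 and 5 of the livers (up to 0.0944 without Lyz2-Cre liver 3 and 0.114 without Lyz2-Cre liver 3). The 3 largest falls among genes with no overlap were those of Cyp17a1, Slco1a1 and Hspa1b, and Nfil3 was also among the 12 largest; these 4 are described with their pathways. Rad51c, which acts in homologous recombination, fell from 1.60 ± 0.582 to 0.327 ± 0.0707 CPM (log2 change −2.27 ± 0.40 SE, edgeR adjusted p = 0.00521). Celsr1, an atypical cadherin of planar cell polarity, fell from 11.5 ± 2.36 to 3.17 ± 1.82 CPM (log2 change −1.86 ± 0.34 SE, edgeR adjusted p = 0.00626). Also among the largest falls were Prss53 (−2.43, edgeR adjusted p = 0.0326), Disp2 (−2.03, edgeR adjusted p = 0.00952), Zfp454 (−1.99, edgeR adjusted p = 0.0129), Sntg2 (−1.95, edgeR adjusted p = 0.00605), the linker histone gene H1f3 (−1.88, edgeR adjusted p = 0.0166) and the mucosal peptide gene Tff3 (−1.86, edgeR adjusted p = 0.02). Prss53 was at 0 counts in NFATc3-MKO livers 2 and 4, so its fitted size depends on the prior count. Its call was lost without 5 of the livers (up to 0.109 without Lyz2-Cre liver 3), that of Tff3 without 3 (up to 0.0567 without Lyz2-Cre liver 3) and that of H1f3 without Lyz2-Cre liver 4 (0.0659).

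By the size of the level, the largest gains included those of Spp1, Iigp1, Txnip, Lpin2 and Gabarapl1, and the largest losses those of Mat1a, C3, Hspa8, Adh1, Ass1 and Ces1c. Txnip, which binds thioredoxin and restrains glucose uptake, stood at 67.3, 104, 97.3 and 88.4 CPM in Lyz2-Cre and 325, 158, 176 and 168 CPM in NFATc3-MKO livers (log2 change 1.21 ± 0.29 SE, edgeR adjusted p = 0.0196). NFATc3-MKO liver 1 was the highest, and all 4 lay above every control. Gabarapl1, a member of the ATG8 family of autophagy proteins, stood at 212, 169.9, 135 and 129 CPM in Lyz2-Cre and 259.7, 256, 256 and 253 CPM in NFATc3-MKO livers (log2 change 0.67 ± 0.17 SE, edgeR adjusted p = 0.0266). The 4 NFATc3-MKO livers lay almost on one value while the controls were spread out below them. Adh1, the main liver alcohol dehydrogenase, was stable and fell from 2767 ± 431 to 1520.5 ± 214 CPM (log2 change −0.86 ± 0.14 SE, edgeR adjusted p = 0.00377). The calls of Txnip and Gabarapl1 were lost without 3 and 2 of the livers, all of them controls (up to 0.0595 without Lyz2-Cre liver 4 and 0.104 without Lyz2-Cre liver 3).

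**Figure D1:**
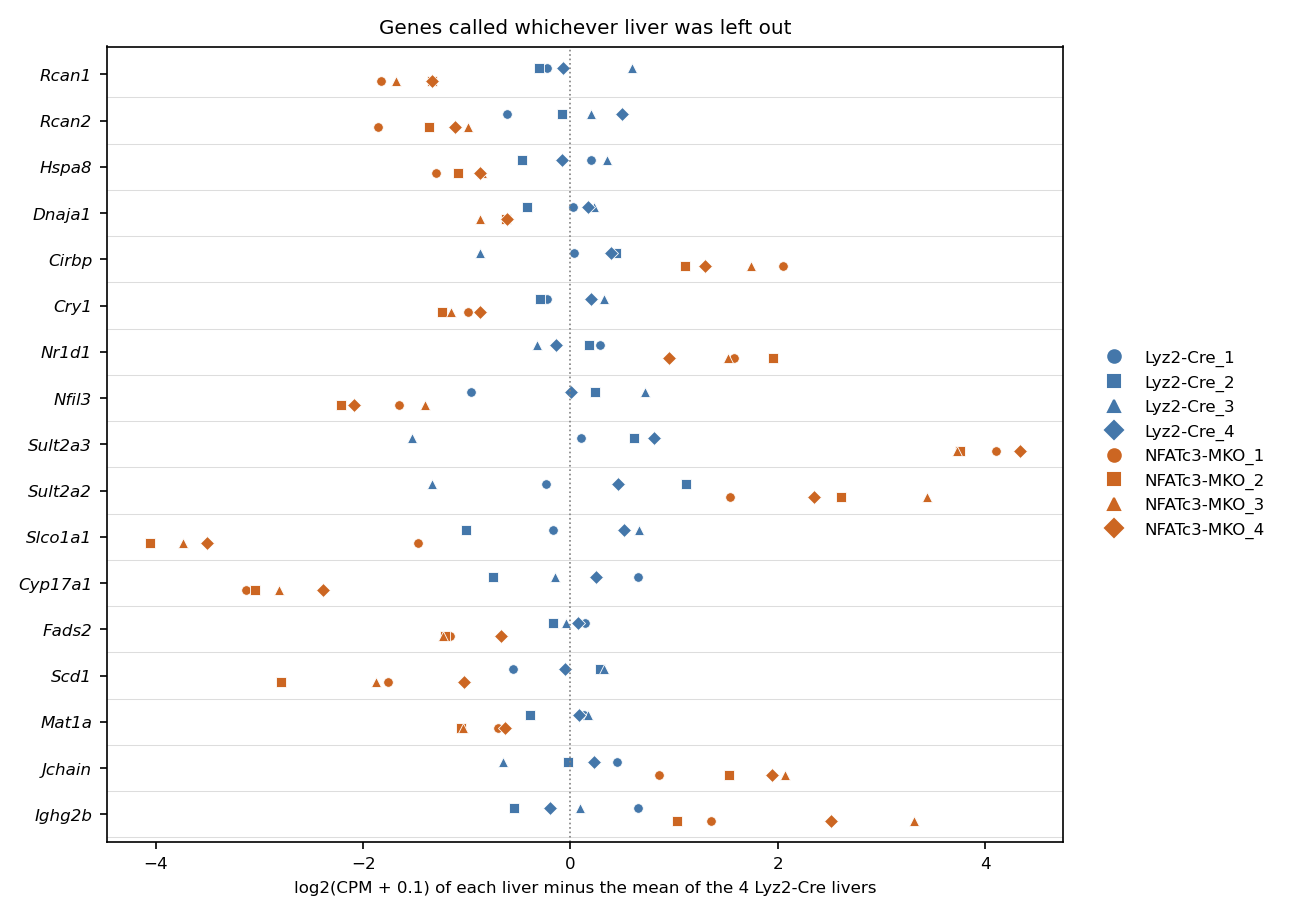
Each point is 1 liver: log2(CPM + 0.1) minus the mean of the 4 Lyz2-Cre livers, for 17 genes called whichever liver was left out; colour gives the group and shape the liver number. In every row the 4 NFATc3-MKO livers lie on one side of the 4 Lyz2-Cre livers, NFATc3-MKO liver 1 included.

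Among 20 genes of the NFAT and calcineurin pathway, 1 rose and 4 fell (25%, against 8.45% of all genes), with a median log2 change of −0.003 against 0.03 for all genes. Rcan1, the calcineurin inhibitor that NFAT itself switches on, stood at 50.3, 47.5, 88.7 and 55.9 CPM in Lyz2-Cre and 16.5, 23.1, 18.2 and 23.1 CPM in NFATc3-MKO livers. Every NFATc3-MKO liver lay well below every control (log2 change −1.58 ± 0.22 SE, edgeR adjusted p = 0.00235). Its relative Rcan2 fell too, from 4.53 ± 1.42 to 1.71 ± 0.447 CPM (log2 change −1.40 ± 0.25 SE, edgeR adjusted p = 0.00596), and both calls were stable. Itpr2, a channel that releases calcium from the endoplasmic reticulum, fell from 37.3 ± 1.60 to 26.4 ± 2.61 CPM (log2 change −0.50 ± 0.11 SE, edgeR adjusted p = 0.0126). Stim2, which senses calcium there and was chosen after its values were seen, fell from 27.1 ± 5.31 to 18.4 ± 1.34 CPM (log2 change −0.56 ± 0.17 SE, edgeR adjusted p = 0.0489). Ppp3ca, the catalytic subunit of calcineurin, rose from 34.2 ± 4.04 to 50.5 ± 11.8 CPM (log2 change 0.56 ± 0.14 SE, edgeR adjusted p = 0.0273). The call of Itpr2 was lost without Lyz2-Cre liver 3 (edgeR adjusted p = 0.0534), those of Ppp3ca and Stim2 without 3 and 7 of the livers (up to 0.105 without Lyz2-Cre liver 3 and 0.134 without Lyz2-Cre liver 3).

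Rcan1 has 2 promoters in the RefSeq table of promoters (GRCm38.p6, the assembly of mm10), and the inner one, ahead of the exon that starts the short isoform, is the one known to answer NFAT. The 250 bases upstream of each start are shown because Rcan1 is the pathway's leading gene; capitals in the first mark GGAAA on either strand (written TTTCC where it lies on the other strand) and the cyclic AMP response element TGACGTCA, and capitals in the second the E-box CACGTG and the paired heat shock units GAANNTTC.
Inner promoter of Rcan1 (chr16:92400079-92400328, minus strand): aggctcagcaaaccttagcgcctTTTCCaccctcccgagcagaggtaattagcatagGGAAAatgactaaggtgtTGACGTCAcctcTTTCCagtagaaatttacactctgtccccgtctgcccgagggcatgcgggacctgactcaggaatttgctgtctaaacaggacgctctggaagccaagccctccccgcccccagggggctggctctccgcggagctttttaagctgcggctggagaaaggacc
Outer promoter of Rcan1 (chr16:92466170-92466419, minus strand): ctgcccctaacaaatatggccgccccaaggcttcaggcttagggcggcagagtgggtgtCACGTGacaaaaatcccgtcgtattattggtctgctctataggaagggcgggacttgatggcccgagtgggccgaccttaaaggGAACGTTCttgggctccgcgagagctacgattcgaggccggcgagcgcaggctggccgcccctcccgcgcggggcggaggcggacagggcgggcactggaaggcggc
The inner window holds 3 GGAAA matches and 1 TGACGTCA match, and the outer window holds neither. Over 32851 promoters of the same length, both strands searched, 55.6% held GGAAA, 6.39% held it 3 times or more and 1.55% held TGACGTCA. CACGTG was in 6.02% and GAANNTTC in 6.69%. The deposited counts are per gene, so which of the 2 starts the lost Rcan1 counts came from was not tested, and a match is a description, not a bound site.

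Heat shock proteins are chaperones that refold damaged proteins, switched on together by heat shock factor 1. Of 15 heat shock and cold-inducible genes, 1 rose and 7 fell (53.3%, against 8.45% of all genes), the highest called share of the 32 pathway lists. In 8 of 15 the groups did not overlap, against 12.8% of all genes. The median log2 change of the list was −0.69. Its median per liver, as log2 CPM minus the mean of the controls, was 0.19, −0.42, 0.31 and −0.12 in the Lyz2-Cre livers and −0.81, −0.71, −0.56 and −0.61 in the NFATc3-MKO livers. All 4 NFATc3-MKO livers lay below all 4 controls, and among the controls livers 1 and 3 were the high ones. Leaving out 1 liver at a time left 3 (without Lyz2-Cre liver 3) to 9 called members, with 4 without Lyz2-Cre liver 1 and 5 without either of NFATc3-MKO livers 2 and 3.

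Hspa8, the constitutive chaperone of the family, stood at 3059.7, 1928, 3396 and 2517 CPM in Lyz2-Cre and 1086, 1252, 1476 and 1451 CPM in NFATc3-MKO livers, with no overlap (log2 change −1.05 ± 0.19 SE, edgeR adjusted p = 0.00605). Dnaja1, its J-domain partner, fell from 434 ± 80.6 to 268 ± 22.9 CPM (log2 change −0.69 ± 0.14 SE, edgeR adjusted p = 0.00766), and both calls were stable. The inducible Hspa1b stood at 118, 21.2, 110.2 and 21.4 CPM in Lyz2-Cre and 6.76, 8.25, 6.77 and 17.7 CPM in NFATc3-MKO livers (log2 change −2.78 ± 0.75 SE, edgeR adjusted p = 0.0336). Lyz2-Cre livers 1 and 3 were several times higher than livers 2 and 4, so the size of this change rests on those 2 controls, and its call was lost without 5 of the livers (up to 0.11 without Lyz2-Cre liver 3). Its near-identical neighbour Hspa1a stood at 12.4, 4.08, 10.5 and 2.42 CPM in Lyz2-Cre and 1.03, 1.21, 1.33 and 2.78 CPM in NFATc3-MKO livers (log2 change −2.21 ± 0.60 SE, edgeR adjusted p = 0.0329), with NFATc3-MKO liver 4 above the lowest control, and reads of the pair may have been split between them. Hsp90aa1 fell from 306 ± 118 to 138 ± 26.0 CPM (log2 change −1.15 ± 0.25 SE, edgeR adjusted p = 0.013), a call lost without Lyz2-Cre liver 3 (0.0594). Hsp90ab1 (−0.58 ± 0.15, edgeR adjusted p = 0.0315) and the nucleotide exchange factor Hsph1 (−1.30 ± 0.35, edgeR adjusted p = 0.0329) fell as well, and lost their calls without 5 and 4 of the livers (up to 0.117 without Lyz2-Cre liver 3 and 0.129 without Lyz2-Cre liver 3). Dnajb1 stood lower in every NFATc3-MKO liver but missed the threshold (log2 change −0.84 ± 0.26 SE, edgeR adjusted p = 0.0516). The 1 member that rose was Cirbp, an RNA-binding protein made at lowered temperature, at 7.28, 9.69, 3.84 and 9.34 CPM in Lyz2-Cre and 29.7, 15.4, 23.9 and 17.6 CPM in NFATc3-MKO livers (log2 change 1.52 ± 0.32 SE, edgeR adjusted p = 0.0114). It was stable and did not overlap, and Lyz2-Cre liver 3, the highest control for Hspa8 and Hsp90aa1, was the lowest for Cirbp. Rbm3, the other cold-inducible RNA-binding protein of the list, stood at 141, 139.5, 116 and 153 CPM in Lyz2-Cre and 149, 158, 249 and 171 CPM in NFATc3-MKO livers and did not pass (log2 change 0.40 ± 0.15 SE, edgeR adjusted p = 0.0988). The members named beyond Hspa8, Dnaja1, Cirbp, Hsp90aa1 and Hspa1b were chosen after their values were seen.

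Upstream stretches of 4 of the genes that fell are shown because they hold a pair of heat shock units; capitals mark GAANNTTC or, in Hsph1, TTCNNGAA.
Hspa1a (chr17:34972203-34972310, minus strand): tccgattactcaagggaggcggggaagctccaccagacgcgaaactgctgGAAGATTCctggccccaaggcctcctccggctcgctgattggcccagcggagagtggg
Hspa1b (chr17:34959285-34959392, minus strand): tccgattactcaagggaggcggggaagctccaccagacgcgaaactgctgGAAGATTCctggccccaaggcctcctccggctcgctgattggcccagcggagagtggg
Hsph1 (chr5:149636337-149636419, minus strand): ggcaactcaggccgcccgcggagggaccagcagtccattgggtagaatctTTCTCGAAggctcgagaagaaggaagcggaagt
Dnaja1 (chr4:40722294-40722401, plus strand): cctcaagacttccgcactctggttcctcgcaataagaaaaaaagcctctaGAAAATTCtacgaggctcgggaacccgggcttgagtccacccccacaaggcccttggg
The stretches of Hspa1a and Hspa1b are the same over all 108 bases. The other Dnaja1 windows, starting at 40722672 and 40722680, hold neither pair. The promoters searched had no entry for Hspa8, Hsp90aa1 or Hsp90ab1. GAANNTTC was in 6.69% and TTCNNGAA in 7.17% of the 32851 windows of 250 bases. Members that did not pass hold such pairs too: Hspb1 has 2 matches to GAANNTTC, and Hspe1 and Hspd1, whose windows overlap, have 1 match to it and 2 to TTCNNGAA each.

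The liver clock runs on a loop in which BMAL1 and CLOCK switch on Per, Cry and Nr1d genes, whose products then shut the loop down. Of 18 clock genes, 3 rose and 5 fell (44.4%, against 8.45% of all genes), and the median log2 change was 0.11. In 10 of 18 the groups did not overlap, against 12.8% of all genes. Clock genes follow the hour of the day, and the labels give no hour of collection, so genotype and hour cannot be told apart. With 1 liver left out, 4 (without Lyz2-Cre liver 3), 5 (without Lyz2-Cre liver 4) or 7 to 9 members were called. Among the repressors, Cry1 stood at 19.0, 18.3, 28.0 and 25.6 CPM in Lyz2-Cre and 11.2, 9.38, 10.0 and 12.2 CPM in NFATc3-MKO livers (log2 change −1.08 ± 0.17 SE, edgeR adjusted p = 0.00321). Per2 fell by a smaller amount (−0.58 ± 0.14, edgeR adjusted p = 0.0185). Both NR1D receptors, which repress Bmal1, went the other way: Nr1d1 stood at 9.29, 8.63, 6.08 and 6.91 CPM in Lyz2-Cre and 23.0, 29.9, 22.0 and 14.8 CPM in NFATc3-MKO livers (log2 change 1.53 ± 0.29 SE, edgeR adjusted p = 0.00704). Nr1d2 rose from 58.7 ± 10.7 to 102 ± 20.4 CPM (log2 change 0.80 ± 0.17 SE, edgeR adjusted p = 0.011). In none of these 4 genes did the groups overlap.

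Nfil3, a repressor that opposes the activator DBP, stood at 9.41, 21.7, 30.4 and 18.5 CPM in Lyz2-Cre and 5.76, 3.90, 6.88 and 4.24 CPM in NFATc3-MKO livers (log2 change −1.94 ± 0.38 SE, edgeR adjusted p = 0.00798). The lowest control, liver 1, was still above the highest NFATc3-MKO liver. The 2 DEC repressors moved in opposite directions, Bhlhe41 upward (1.86 ± 0.43, edgeR adjusted p = 0.0169) and Bhlhe40 downward (−0.65 ± 0.17, edgeR adjusted p = 0.0303). Bmal1 itself stood at 1.17, 1.95, 5.38 and 2.32 CPM in Lyz2-Cre and 0.773, 1.59, 0.555 and 0.534 CPM in NFATc3-MKO livers. Dbp stood at 43.0, 29.1, 13.2 and 28.7 CPM in Lyz2-Cre and 50.1, 47.8, 67.5 and 49.9 CPM in NFATc3-MKO livers, and neither gene passed (−1.64, edgeR adjusted p = 0.06, and 0.91, edgeR adjusted p = 0.071). Cry1, Nr1d1 and Nfil3 were stable. Nr1d2 lost its call without Lyz2-Cre liver 3 (0.0528), and Per2, Bhlhe41 and Bhlhe40 lost theirs without 2, 2 and 4 of the livers (up to 0.078 without Lyz2-Cre liver 3, 0.0707 without Lyz2-Cre liver 3 and 0.0784 without Lyz2-Cre liver 4). The clock genes other than Cry1, Nr1d1 and Nfil3 were chosen after their values were seen.

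Short upstream windows of 3 of these genes are shown because they hold a letter match for a clock element; capitals mark the E-box CACGTG in Cry1 and Bhlhe41 and, in Nfil3, TGACCT, the other strand of the nuclear receptor motif AGGTCA.
Cry1 (chr10:85185079-85185144, minus strand): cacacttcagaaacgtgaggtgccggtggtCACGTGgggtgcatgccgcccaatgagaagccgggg
Bhlhe41 (chr6:145865538-145865603, minus strand): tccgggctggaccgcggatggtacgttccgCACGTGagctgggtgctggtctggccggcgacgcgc
Nfil3 (chr13:52981040-52981081, minus strand): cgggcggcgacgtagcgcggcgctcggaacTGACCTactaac
CACGTG was in 6.02% and AGGTCA in 14% of the 32851 windows of 250 bases. Cry1 fell and Bhlhe41 rose, so genes that share the E-box letters moved in opposite directions. The same held for AGGTCA: Nfil3 fell, and Nr1d2, which rose and is not shown, has 1 match. Members that did not pass hold matches too: Ciart has 3 to CACGTG, each Tef window has 1, and Clock has 1 to AGGTCA in a single window.

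Many liver genes differ between the sexes under the pulsed or steady release of growth hormone, acting through STAT5 and BCL6. All 8 livers were male. Of 21 female-biased genes tested, 3 rose and 1 fell (19.0%, against 8.45% of all genes; median log2 change 0.02), and of 21 male-biased genes, 1 rose and 4 fell (23.8%; median −0.22). The 3 female-biased genes that rose were all hydroxysteroid sulfotransferases, enzymes that add sulfate to steroids and bile acids. Sult2a3 stood at 2.09, 3.02, 0.608 and 3.46 CPM in Lyz2-Cre and 35, 27.4, 27.0 and 41.0 CPM in NFATc3-MKO livers, the largest rise among called genes with no overlap at 1 CPM or more (log2 change 3.83 ± 0.35 SE, edgeR adjusted p = 6.53e-05). Every NFATc3-MKO liver lay far above the highest control. Sult2a2 stood at 5.91, 15.3, 2.71 and 9.64 CPM in Lyz2-Cre and 20.5, 43.2, 77.0 and 36.1 CPM in NFATc3-MKO livers (log2 change 2.4 ± 0.47 SE, edgeR adjusted p = 0.0077). Sult2a5, which was not on the list, and Sult2a1 rose too, at much lower levels (2.22, edgeR adjusted p = 0.0062, and 1.90, edgeR adjusted p = 0.0169). The 4 genes are close copies in a cluster, so reads may have been split among them. Sult2a1 lost its call without 3 of the livers (up to 0.0715 without Lyz2-Cre liver 3), and the other 3 were stable. Slco1a4, a transporter of organic anions and the female-biased gene that fell, lost its call without 6 of the livers (−0.95, edgeR adjusted p = 0.0498, up to 0.13 without NFATc3-MKO liver 3).

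On the male-biased side, Slco1a1, a related transporter of organic anions, stood at 14.2, 7.90, 25.4 and 23.0 CPM in Lyz2-Cre and 5.70, 0.870, 1.11 and 1.32 CPM in NFATc3-MKO livers (log2 change −2.94 ± 0.52 SE, edgeR adjusted p = 0.00564). NFATc3-MKO livers 2 to 4 were near 1 CPM, and liver 1 lay between them and the controls. C6, of the terminal complement pathway, fell from 29.3 ± 3.68 to 15.6 ± 2.61 CPM (log2 change −0.91 ± 0.15 SE, edgeR adjusted p = 0.00353). Both were stable. Bcl6 (−1.11 ± 0.30, edgeR adjusted p = 0.0326), the repressor that holds down female-biased genes in males, and Serpina12 (−0.97 ± 0.27, edgeR adjusted p = 0.036), a serpin, fell with no overlap but lost their calls without 5 and 6 of the livers (up to 0.114 without Lyz2-Cre liver 4 and 0.0934 without Lyz2-Cre liver 4). Elovl3, a male-biased fatty acid elongase chosen after its values were seen, rose with overlapping groups (1.83 ± 0.53, edgeR adjusted p = 0.0406), and its call was lost without 5 of the livers (up to 0.107 without NFATc3-MKO liver 1, its highest liver). Among 15 genes of growth hormone, STAT5 and IGF signalling, 3 rose (20%, against 8.45% of all genes) and none of the others passed (median −0.15). They were Socs3, the feedback inhibitor of cytokine receptors (1.08, edgeR adjusted p = 0.0232), Igfbp3, a carrier of IGF1 (0.92, edgeR adjusted p = 0.0239), and Trim24, a transcriptional cofactor (0.37, edgeR adjusted p = 0.0344). Each was lost without 3 to 5 of the livers, Lyz2-Cre liver 3 among them (up to 0.132 without Lyz2-Cre liver 3).

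Of 21 genes of steroid metabolism and glucocorticoid response, 1 rose and 4 fell (23.8%, against 8.45% of all genes). The median was −0.22, with 16 of 21 lower. Cyp17a1, the 17-alpha hydroxylase, stood at 24.7, 9.31, 14.1 and 18.6 CPM in Lyz2-Cre and 1.71, 1.82, 2.15 and 2.92 CPM in NFATc3-MKO livers. Its groups lay far apart, and it had the largest fall among called genes with no overlap at 1 CPM or more (log2 change −2.96 ± 0.34 SE, edgeR adjusted p = 0.000533). Srd5a1, a steroid 5-alpha reductase, fell from 12.9 ± 2.43 to 8.12 ± 0.543 CPM (log2 change −0.67 ± 0.13 SE, edgeR adjusted p = 0.00709). Akr1c6, a 17-beta hydroxysteroid dehydrogenase, fell from 834 ± 191 to 504 ± 46.9 CPM (log2 change −0.73 ± 0.17 SE, edgeR adjusted p = 0.0152), a call lost without either of Lyz2-Cre livers 3 (0.0508) and 4. Hsd3b7, which acts early in the making of bile acids from oxysterols, rose from 97.2 ± 11.1 to 183 ± 12.3 CPM (log2 change 0.91 ± 0.15 SE, edgeR adjusted p = 0.00321). Tsc22d3, the glucocorticoid-induced leucine zipper gene GILZ, was chosen after its values were seen and stood at 90.8, 73.6, 136 and 139 CPM in Lyz2-Cre and 36.8, 49.3, 53.2 and 74.4 CPM in NFATc3-MKO livers (log2 change −1.04 ± 0.24 SE, edgeR adjusted p = 0.0176). NFATc3-MKO liver 4 just reached the lowest control, liver 2, and the call was lost without 2 of the controls (up to 0.0719 without Lyz2-Cre liver 3). Cyp17a1, Srd5a1 and Hsd3b7 were stable.

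**Figure D2:**
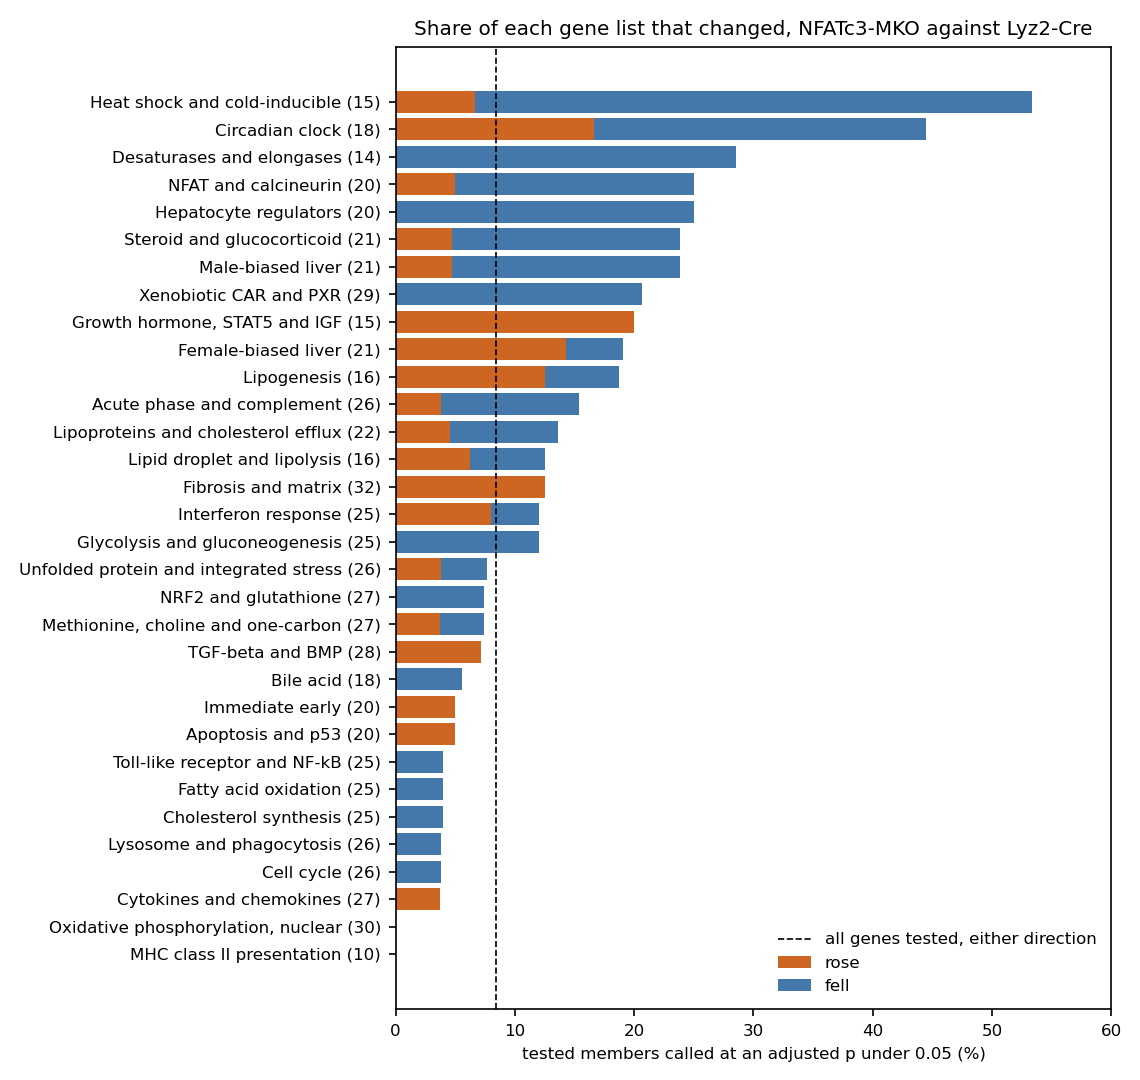
Bars give the share of tested members of each of 32 pathway lists (number tested in parentheses) that rose or fell at an edgeR adjusted p under 0.05, and the dashed line gives the 8.45% of all genes tested. Heat shock and clock genes stand highest, at 53.3% and 44.4%; the oxidative phosphorylation and MHC class II lists have no called member.

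Long polyunsaturated fatty acids are built by alternating desaturases and elongases. Of 14 such genes, 4 fell and none rose (28.6%, against 8.45% of all genes), with a median of −0.18. The 4 make up both desaturases and 2 elongases of that route. Fads2, the delta-6 desaturase, stood at 1732, 1397, 1526 and 1654 CPM in Lyz2-Cre and 704, 681, 670.1 and 985 CPM in NFATc3-MKO livers (log2 change −1.05 ± 0.17 SE, edgeR adjusted p = 0.00321). Fads1, the delta-5 desaturase, stood at 863, 652, 763 and 850.3 CPM in Lyz2-Cre and 459, 404, 412 and 474 CPM in NFATc3-MKO livers (log2 change −0.84 ± 0.13 SE, edgeR adjusted p = 0.00299). For both, the highest NFATc3-MKO liver, liver 4, lay below the lowest control. Elovl2 fell from 523 ± 87.4 to 291 ± 52.4 CPM (log2 change −0.84 ± 0.17 SE, edgeR adjusted p = 0.00774) and Elovl5 from 432 ± 63.7 to 251 ± 28.0 CPM (log2 change −0.79 ± 0.17 SE, edgeR adjusted p = 0.0114). Scd1, which makes oleate, is counted with lipogenesis and stood at 230.5, 412, 426 and 327 CPM in Lyz2-Cre and 100.3, 48.8, 92.2 and 166 CPM in NFATc3-MKO livers (log2 change −1.78 ± 0.36 SE, edgeR adjusted p = 0.00818). All but Elovl5 were stable, which lost its call without Lyz2-Cre liver 3 (0.0507).

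Of 16 lipogenesis genes, 2 rose and 1 fell (18.8%, against 8.45% of all genes). The median log2 change was −0.38, with 12 of 16 lower. The abundant synthase gene Fasn stood at 634, 464, 919 and 657 CPM in Lyz2-Cre and 114, 203, 157 and 476 CPM in NFATc3-MKO livers and did not pass (log2 change −1.49 ± 0.48 SE, edgeR adjusted p = 0.0627). NFATc3-MKO livers 1 to 3 lay below every control, and liver 4 reached the control range; without liver 4 it passed (0.0205). Lpin2, a phosphatidate phosphatase, rose from 156 ± 16.8 to 266 ± 93.1 CPM (log2 change 0.77 ± 0.20 SE, edgeR adjusted p = 0.0275), and Mlxipl, the gene of the carbohydrate-responsive factor ChREBP, rose from 17.4 ± 1.94 to 25.2 ± 1.37 CPM (log2 change 0.53 ± 0.15 SE, edgeR adjusted p = 0.035). The 2 genes lost their calls without 3 and 6 of the livers (up to 0.0871 without Lyz2-Cre liver 4 and 0.103 without Lyz2-Cre liver 3). Among 25 fatty acid oxidation genes, 22 were lower and 1 passed (4%, against 8.45% of all genes). Fabp1, the liver fatty acid carrier, was at 2214, 1172, 1432 and 1863 CPM in Lyz2-Cre and 911, 764, 689 and 674 CPM in NFATc3-MKO livers (log2 change −1.14 ± 0.23 SE, edgeR adjusted p = 0.00793). It was stable with no overlap. The share of this list below all 4 controls was 2 of 25 in NFATc3-MKO liver 1 and 21 of 25 in liver 2, so its median of −0.31 is not shared evenly. Of 16 lipid droplet genes, 2 passed (12.5%, against 8.45% of all genes). Mgll, which completes the breakdown of triglyceride, fell (−0.96 ± 0.16, edgeR adjusted p = 0.00345, stable), and the droplet coat gene Plin4 rose (1.21 ± 0.34, edgeR adjusted p = 0.0369, lost without 5 of the livers, up to 0.128 without Lyz2-Cre liver 3).

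Cholesterol and bile acid genes gave few calls, whereas lipoprotein genes were above the share of all genes. Against 8.45% of all genes, 4% of the cholesterol list, 5.56% of the bile acid list and 13.6% of the lipoprotein list were called. Of 25 genes of cholesterol synthesis and uptake, 1 fell and none rose (median −0.07). Of 18 bile acid genes, 1 fell: Cyp7a1, whose product sets the pace of the classic route from cholesterol to bile acids, stood at 319, 238, 354 and 384 CPM in Lyz2-Cre and 216, 90.5, 77.0 and 154 CPM in NFATc3-MKO livers (log2 change −1.27 ± 0.33 SE, edgeR adjusted p = 0.0291). NFATc3-MKO liver 1 lay just under the lowest control. Of 22 genes of lipoproteins and cholesterol efflux, the sterol receptor gene Nr1h3 (−0.45, edgeR adjusted p = 0.0216) and the HDL carrier gene Apom (−0.52, edgeR adjusted p = 0.0335) fell, and Abcg8, which exports sterol into bile, rose (0.77, edgeR adjusted p = 0.0402). The 4 calls of Cyp7a1, Nr1h3, Apom and Abcg8 were lost without 3 to 5 of the livers, Lyz2-Cre liver 3 among them in each case (up to 0.141 without Lyz2-Cre liver 3).

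Both groups ate the same diet without methionine, so an effect of the diet was not tested. The liver gene for the enzyme that turns methionine into S-adenosylmethionine fell in NFATc3-MKO livers. Mat1a stood at 5553, 3863, 5697 and 5359 CPM in Lyz2-Cre and 3119, 2431, 2467 and 3267 CPM in NFATc3-MKO livers, the largest loss in CPM of any called gene, with no overlap (log2 change −0.86 ± 0.17 SE, edgeR adjusted p = 0.00766). Mat2b, the regulatory subunit of the form used outside the adult hepatocyte, rose from 30.4 ± 2.19 to 50.1 ± 7.07 CPM (log2 change 0.72 ± 0.12 SE, edgeR adjusted p = 0.00345). Both were stable, and they were the only members called of 27 genes of methionine, choline and one-carbon metabolism (7.41%, near the 8.45% of all genes; median −0.28). Of 25 genes of glycolysis and gluconeogenesis, 3 fell and none rose (12%, against 8.45% of all genes). Fbp1, of gluconeogenesis (−1.08 ± 0.25, edgeR adjusted p = 0.0158), and Eno1, of glycolysis (−0.55 ± 0.16, edgeR adjusted p = 0.0421), fell with overlapping groups and lost their calls without 2 and 6 of the livers (up to 0.0542 without Lyz2-Cre liver 3 and 0.132 without Lyz2-Cre liver 3).

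Of 29 genes of the CAR and PXR xenobiotic response, 6 fell and none rose (20.7%, against 8.45% of all genes). The median was −0.21, with 24 of 29 lower. Nr1i3, the gene of the receptor CAR, fell from 163 ± 35.2 to 84.0 ± 8.22 CPM (log2 change −0.95 ± 0.19 SE, edgeR adjusted p = 0.00766), and Ahr, the dioxin receptor, fell from 76.1 ± 19.0 to 40.3 ± 8.32 CPM (log2 change −0.92 ± 0.19 SE, edgeR adjusted p = 0.011). Both were stable. Ces1d, a lipase and carboxylesterase, fell from 522 ± 144 to 187 ± 87.1 CPM (log2 change −1.48 ± 0.36 SE, edgeR adjusted p = 0.0233). The cytochrome P450 gene Cyp3a13 fell by less (−0.59 ± 0.15, edgeR adjusted p = 0.0263), with Ces1d losing its call without 5 and Cyp3a13 without 6 of the livers (up to 0.073 without NFATc3-MKO liver 3 and 0.0726 without Lyz2-Cre liver 3). Ces1c, a plasma carboxylesterase and close relative of Ces1d, fell from 3092 ± 699.8 to 2032 ± 416 CPM (log2 change −0.61 ± 0.18 SE, edgeR adjusted p = 0.0478) but lost its call without 6 of the livers (up to 0.132 without Lyz2-Cre liver 1). Of 27 NRF2 and glutathione genes, 2 fell (7.41%, near the 8.45% of all genes). The 2 were the glutathione transferase gene Gsta3 (−0.87, edgeR adjusted p = 0.00634, stable) and Nfe2l2, which encodes NRF2 itself (−0.39, edgeR adjusted p = 0.0469, lost without 6 of the livers, up to 0.129 without Lyz2-Cre liver 4).

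Of 20 regulators that hold hepatocyte identity, 5 fell and none rose (25%, against 8.45% of all genes), and the median was −0.07. The groups did not overlap in these 5 of 20, against 12.8% of all genes. Hnf4a, the central nuclear receptor of the hepatocyte, stood at 472, 454, 473 and 491 CPM in Lyz2-Cre and 372, 307, 312 and 298 CPM in NFATc3-MKO livers (log2 change −0.55 ± 0.11 SE, edgeR adjusted p = 0.00755). The controls lay within a narrow range and all 4 NFATc3-MKO livers below it, and the call was stable. Foxa3 fell from 42.2 ± 10.5 to 18.7 ± 6.73 CPM (log2 change −1.17 ± 0.27 SE, edgeR adjusted p = 0.0169), a call lost without Lyz2-Cre liver 4 (0.0622). Prox1 (−0.71 ± 0.18, edgeR adjusted p = 0.026), Gata4 (−0.53 ± 0.14, edgeR adjusted p = 0.0304) and Zhx2 (−0.61 ± 0.18, edgeR adjusted p = 0.0397), the last chosen after its values were seen, lost theirs without 5, 4 and 6 of the livers (up to 0.0832 without Lyz2-Cre liver 4, 0.102 without Lyz2-Cre liver 3 and 0.114 without Lyz2-Cre liver 4).

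All 16 hepatocyte markers were lower on average, with a median of −0.24, and 1 fell (6.25%, against 4.67% of all genes). By summed level the list stood at 165551, 122988, 150480.0 and 159360.0 CPM in the Lyz2-Cre livers and 136045, 90309, 120058 and 134152 CPM in the NFATc3-MKO livers, and NFATc3-MKO liver 2 was the lowest, with 16 of 16 markers below all controls. In whole liver, fewer cells of a type and less RNA per cell cannot be told apart, here and in every cell type result that follows. Of 12 periportal markers, 3 fell (25%, against 4.67% of all genes). The median was −0.53, with 12 of 12 lower, and none of the 12 was free of overlap. The urea cycle gene Asl stood at 611, 262, 577 and 494 CPM in Lyz2-Cre and 263, 163, 277 and 244 CPM in NFATc3-MKO livers (log2 change −1.04 ± 0.25 SE, edgeR adjusted p = 0.0211). Lyz2-Cre liver 2 lay within the range of the NFATc3-MKO livers. Ass1, the urea cycle enzyme before it, fell from 2905 ± 937 to 1675 ± 334 CPM (log2 change −0.79 ± 0.24 SE, edgeR adjusted p = 0.046) and Etnppl, a phospho-lyase, from 197 ± 88.1 to 78.6 ± 47.0 CPM (log2 change −1.33 ± 0.38 SE, edgeR adjusted p = 0.041), with the same overlap. These 3 lost their calls without 3 to 6 of the livers (up to 0.153 without Lyz2-Cre liver 3). Of 12 pericentral markers, 1 fell (8.33%, against 4.67% of all genes), and the median was −0.04. It was the amino acid transporter gene Slc1a4 (−1.41, edgeR adjusted p = 0.0143), a call lost without Lyz2-Cre liver 4 (0.0501).

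A second set of changes was carried by NFATc3-MKO livers 2 to 4, with liver 1 among the controls and Lyz2-Cre liver 2 the highest control. It covered bile duct, matrix and some myeloid genes. Of 13 cholangiocyte markers tested, 5 rose (38.5%, against 3.77% of all genes), all 13 were higher, the median was 1.20, and none of the 5 was stable. Without NFATc3-MKO liver 1, 8 of the 13 were called, and without Lyz2-Cre liver 2, 6; without any one of Lyz2-Cre livers 1, 3 and 4 or NFATc3-MKO livers 2 and 3, none of the 13 passed, and without NFATc3-MKO liver 4, 2 did. Spp1, which encodes osteopontin, made by bile duct cells and by lipid-associated macrophages, stood at 54.6, 116, 52.9 and 69.6 CPM in Lyz2-Cre and 85.2, 322, 366 and 290.4 CPM in NFATc3-MKO livers (log2 change 1.86 ± 0.46 SE, edgeR adjusted p = 0.0241). NFATc3-MKO liver 1 lay below Lyz2-Cre liver 2, and the other 3 were all above every control. Epcam, an adhesion protein of bile duct and progenitor cells, stood at 2.69, 3.87, 2.71 and 2.68 CPM in Lyz2-Cre and 3.03, 12.4, 15.1 and 15.2 CPM in NFATc3-MKO livers (log2 change 1.93 ± 0.52 SE, edgeR adjusted p = 0.0325), again with liver 1 inside the control range. Cd24a, of the same cells, stood at 5.15, 12.0, 3.79 and 6.40 CPM in Lyz2-Cre and 6.79, 36.2, 26.6 and 38.0 CPM in NFATc3-MKO livers (log2 change 1.97 ± 0.48 SE, edgeR adjusted p = 0.022). The tight junction genes Cldn4 (1.88 ± 0.53, edgeR adjusted p = 0.0377) and Cldn7 (1.85 ± 0.55, edgeR adjusted p = 0.046, chosen after its values were seen) rose at low levels. Mmp7, a protease made by injured bile ducts that is not on the list, stood at 1.53, 3.44, 0.421 and 0.825 CPM in Lyz2-Cre and 1.84, 15.7, 17.9 and 20.6 CPM in NFATc3-MKO livers (log2 change 3.15 ± 0.81 SE, edgeR adjusted p = 0.0275). Without NFATc3-MKO liver 1 the edgeR adjusted p of Spp1, Epcam and Cd24a was 0.00819, 0.00921 and 0.00653, and without Lyz2-Cre liver 3 it was 0.0946, 0.104 and 0.09. The median of the list per liver was −0.23, 0.48, −0.29 and −0.06 in the Lyz2-Cre livers and 0.11, 1.43, 1.60 and 1.71 in the NFATc3-MKO livers. Its members above all controls numbered 0 in NFATc3-MKO liver 1 and 11 or 12 of 13 in each of the others. Cldn4, Cldn7 and Mmp7 each lost their call without 6 of the livers (up to 0.125 without Lyz2-Cre liver 3, 0.148 without Lyz2-Cre liver 3 and 0.103 without Lyz2-Cre liver 3).

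Matrix genes followed the same livers. Of 32 fibrosis and matrix genes, 4 rose and none fell (12.5%, against 8.45% of all genes). Of the 32, 28 were higher, with a median of 0.87, and none had groups apart. In NFATc3-MKO liver 1, 16 of 32 lay below all controls and 0 above, whereas 29 lay above in liver 2, 14 in liver 3 and 25 in liver 4. The number called was 20 of 32 without NFATc3-MKO liver 1 and 14 without Lyz2-Cre liver 2, and 0 to 3 without any one of the other 6 livers. Eln, the elastin gene, stood at 1.77, 3.91, 1.82 and 2.42 CPM in Lyz2-Cre and 1.93, 20.5, 13.7 and 17.0 CPM in NFATc3-MKO livers (log2 change 2.42 ± 0.51 SE, edgeR adjusted p = 0.0114). Lox, which cross-links collagen and elastin, stood at 0.442, 1.66, 0.374 and 0.516 CPM in Lyz2-Cre and 0.612, 11.8, 3.85 and 5.42 CPM in NFATc3-MKO livers (log2 change 2.83 ± 0.63 SE, edgeR adjusted p = 0.014). In both genes NFATc3-MKO liver 1 sat with the controls. Loxl1, a related cross-linking enzyme, rose from 1.15 ± 0.361 to 4.14 ± 2.32 CPM (log2 change 1.83 ± 0.53 SE, edgeR adjusted p = 0.0407), and Col4a2, of the basement membrane, rose from 22.6 ± 6.97 to 39.3 ± 11.0 CPM (log2 change 0.80 ± 0.22 SE, edgeR adjusted p = 0.036). The fibrillar collagen genes did not pass, at 3.70, 24.7, 6.31 and 8.51 CPM in Lyz2-Cre and 4.57, 81.1, 37.8 and 47.7 CPM in NFATc3-MKO livers for Col1a1 (log2 change 1.98 ± 0.66 SE, edgeR adjusted p = 0.0713) and a log2 change of 1.52 ± 0.60, edgeR adjusted p = 0.122 for Col3a1. Both were among the genes with the largest spread within the NFATc3-MKO group. Lyz2-Cre liver 2 was well above the other controls in each. Eln lost its call without Lyz2-Cre liver 3 (0.0534), Lox without either of Lyz2-Cre livers 3 (0.0622) and 4, and Loxl1 and Col4a2 without 6 and 5 of the livers (up to 0.123 without Lyz2-Cre liver 3 and 0.114 without Lyz2-Cre liver 4).

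Contractile genes of activated stellate cells and portal fibroblasts showed it as well. Of 8 myofibroblast markers tested, out of 12 on the list, 2 rose (25%, against 3.77% of all genes) and all 8 were higher (median 0.54). Those that rose were Tagln (1.25 ± 0.31, edgeR adjusted p = 0.0222) and Acta2, the smooth muscle actin used to stain scar-forming cells. Acta2 stood at 1.85, 4.42, 2.39 and 2.73 CPM in Lyz2-Cre and 2.54, 8.13, 5.92 and 8.77 CPM in NFATc3-MKO livers (log2 change 1.15 ± 0.32 SE, edgeR adjusted p = 0.0358). Of 13 markers of hepatic stellate cells, none passed in edgeR (median −0.15; 3 at an unadjusted p under 0.05, 0 in DESeq2 and 4 in voom), and their summed level, at 909, 735, 866 and 800.4 CPM in the Lyz2-Cre livers and 708, 739.5, 722 and 738 CPM in the NFATc3-MKO livers, overlapped between the groups. Of 28 genes of TGF-beta and BMP signalling, 2 rose (7.14%, near the 8.45% of all genes). Among them was Smad9, a BMP effector that was highest in NFATc3-MKO liver 1, at 37.8 CPM against 11.4 to 19.1 in the others (1.05, edgeR adjusted p = 0.0467). None of the calls of Tagln, Acta2 and Smad9 was stable, each being lost without 4 to 6 of the livers (up to 0.0844 without Lyz2-Cre liver 3, 0.117 without Lyz2-Cre liver 3 and 0.136 without Lyz2-Cre liver 4).

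**Figure D3:**
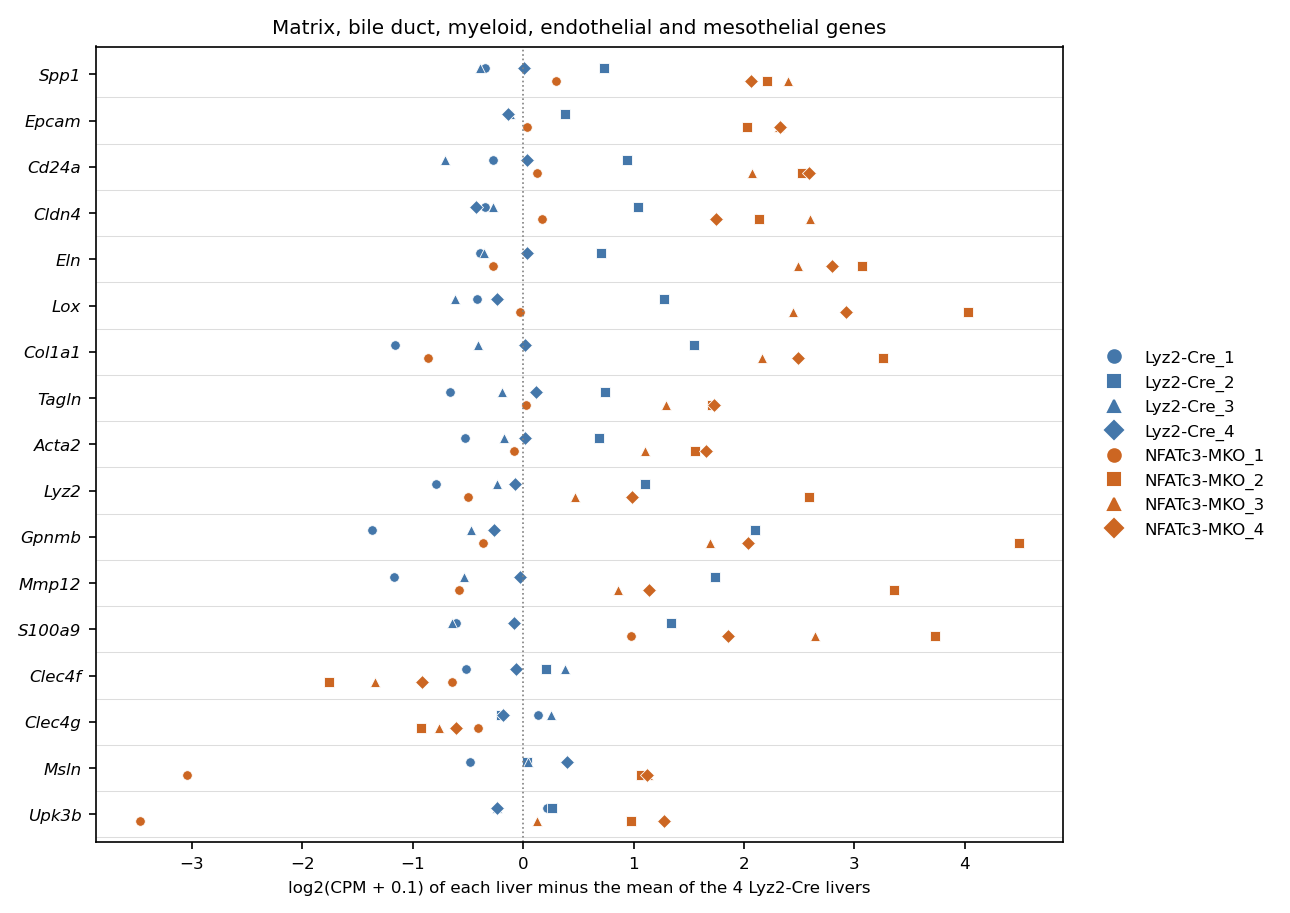
Each point is 1 liver, plotted as log2(CPM + 0.1) minus the mean of the 4 Lyz2-Cre livers, with colour for the group and shape for the liver number. For Spp1 to Mmp12, NFATc3-MKO liver 1 (circle) lies among the controls and Lyz2-Cre liver 2 (square) is the highest control, whereas for Clec4f and Clec4g all 4 NFATc3-MKO livers lie below every control.

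Macrophages are the cells in which the label places the loss. Resident Kupffer cells and monocyte-derived cells that take up lipid and carry Spp1, Gpnmb and Trem2 are the 2 main kinds in a fatty liver. Of 15 pan-macrophage markers, none changed at an edgeR adjusted p under 0.05 (median 0.13), 2 had an unadjusted p under 0.05, and DESeq2 called 0 and voom 1. Lyz2, whose locus drives Cre in the controls, stood at 52.5, 195, 76.8 and 85.9 CPM in Lyz2-Cre and 64.2, 545, 126 and 179.9 CPM in NFATc3-MKO livers (log2 change 1.16 ± 0.51 SE, edgeR adjusted p = 0.159). NFATc3-MKO liver 2 was by far the highest, liver 1 lay at the low end of the controls, and Lyz2-Cre liver 2 exceeded 3 of the 4 NFATc3-MKO livers. Of 12 Kupffer cell markers, 3 fell (25%, against 4.67% of all genes) and 11 were lower (median −0.46), and 4 of 12 did not overlap between the groups, against 12.8% of all genes. Clec4f, a lectin found on Kupffer cells only, stood at 57.2, 94.4, 107 and 78.1 CPM in Lyz2-Cre and 52.3, 24.1, 32.3 and 43.4 CPM in NFATc3-MKO livers (log2 change −1.14 ± 0.30 SE, edgeR adjusted p = 0.0305). The other 2 that fell, C6 and Nr1h3, are also made by hepatocytes and are described above. Timd4 (−0.94, edgeR adjusted p = 0.159) and Vsig4 (−0.55, edgeR adjusted p = 0.19), further markers of resident Kupffer cells, did not pass. Clec4f lost its call without 5 of the livers (up to 0.105 without Lyz2-Cre liver 3). The summed level of the list was 566, 749.5, 711 and 612 CPM in the Lyz2-Cre livers and 571, 472, 488 and 459.9 CPM in the NFATc3-MKO livers, where NFATc3-MKO liver 1 overlapped the controls.

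All 15 markers of monocytes and lipid-associated macrophages were higher, with a median of 1.31, and 1 passed, Spp1 (6.67%, against 3.77% of all genes). Without NFATc3-MKO liver 1, 11 of the 15 were called, and without Lyz2-Cre liver 2, 8; without any one of Lyz2-Cre livers 1, 3 and 4 or NFATc3-MKO livers 2 and 3 none passed, and without NFATc3-MKO liver 4, 1 did. Gpnmb, a glycoprotein of lipid-laden macrophages, stood at 6.56, 73.4, 12.3 and 14.2 CPM in Lyz2-Cre and 13.2, 386, 55.4 and 70.1 CPM in NFATc3-MKO livers (log2 change 2.30 ± 0.83 SE, edgeR adjusted p = 0.0938). Trem2, their lipid receptor, stood at 2.45, 6.42, 3.13 and 4.02 CPM in Lyz2-Cre and 2.22, 15.9, 8.14 and 6.88 CPM in NFATc3-MKO livers (log2 change 1.05 ± 0.42 SE, edgeR adjusted p = 0.12). NFATc3-MKO liver 2 was the highest in both, and liver 1 lay below Lyz2-Cre liver 2 in both. Mmp12, the macrophage elastase, had the same pattern with no call (log2 change 1.45 ± 0.78 SE, edgeR adjusted p = 0.24). The median of the list per liver was −0.60, 1.15, −0.47 and −0.03 in the Lyz2-Cre livers and −0.37, 2.36, 1.10 and 1.09 in the NFATc3-MKO livers, and Lyz2-Cre liver 2 stood level with NFATc3-MKO livers 3 and 4.

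Of 7 neutrophil markers tested, out of 14 on the list, 2 rose (28.6%, against 3.77% of all genes) and all 7 were higher (median 1.23): S100a8 and S100a9, the calprotectin pair. S100a9 stood at 1.01, 4.16, 0.982 and 1.5 CPM in Lyz2-Cre and 3.22, 22.3, 10.5 and 6.02 CPM in NFATc3-MKO livers (log2 change 2.45 ± 0.64 SE, edgeR adjusted p = 0.0304). S100a8 rose from 1.48 ± 1.52 to 6.95 ± 5.07 CPM (log2 change 2.21 ± 0.63 SE, edgeR adjusted p = 0.0401). Lyz2-Cre liver 2 was the one control in the NFATc3-MKO range, and both calls were lost without 5 of the livers (up to 0.111 without Lyz2-Cre liver 3 and 0.129 without Lyz2-Cre liver 3). The summed level of the list was 30.4, 299.8, 55.0 and 44.2 CPM in the Lyz2-Cre livers and 52.1, 292, 299.5 and 202 CPM in the NFATc3-MKO livers, with Lyz2-Cre liver 2 as high as the highest NFATc3-MKO liver. In Lyz2-Cre liver 2, S100a8 stood at only 3.74 and S100a9 at 4.16 CPM. Most of that sum came from other members, and how specific these are to neutrophils was not tested. Of 10 MHC class II genes none passed in edgeR (median 0.71); 4 had an unadjusted p under 0.05, DESeq2 called 0 and voom 6, and 4 passed without NFATc3-MKO liver 1 but none without any other single liver. Cd74, their chaperone, stood at 69.2, 105, 72.9 and 77.6 CPM in Lyz2-Cre and 47.8, 194, 125 and 156 CPM in NFATc3-MKO livers (log2 change 0.69 ± 0.29 SE, edgeR adjusted p = 0.143), with NFATc3-MKO liver 1 the lowest of the 8 and the other 3 the highest. None of the 10 dendritic cell and 14 T and NK cell markers passed in edgeR, DESeq2 or voom (medians 0.20 and 0.51; 0 and 1 at an unadjusted p under 0.05).

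Among plasma cell genes, NFATc3-MKO liver 1 lay on the side of its group. Of 6 B and plasma cell markers tested, out of 11, 2 rose (33.3%, against 3.77% of all genes). Jchain, which joins immunoglobulin units in secreted IgA and IgM, stood at 3.82, 2.72, 1.73 and 3.25 CPM in Lyz2-Cre and 5.09, 8.21, 12.0 and 10.9 CPM in NFATc3-MKO livers (log2 change 1.65 ± 0.32 SE, edgeR adjusted p = 0.00766). Igkc, the kappa light chain constant gene, stood at 7.32, 5.65, 4.54 and 7.12 CPM in Lyz2-Cre and 10.7, 14.6, 41.6 and 21.0 CPM in NFATc3-MKO livers (log2 change 1.83 ± 0.37 SE, edgeR adjusted p = 0.00898). Both were stable with no overlap, and liver 1 was the lowest of its group in each. The heavy chain genes Ighg2b (2.32 ± 0.46, edgeR adjusted p = 0.00801) and Ighg2c (2.20 ± 0.46, edgeR adjusted p = 0.0108) rose likewise and were stable. Ighg1 (2.39 ± 0.67, edgeR adjusted p = 0.037) lost its call without 5 of the livers (up to 0.132 without NFATc3-MKO liver 3). NFATc3-MKO livers 3 and 4 were the highest for all 3 heavy chain genes.

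Of 14 markers of the sinusoidal endothelium, 4 fell and none rose (28.6%, against 4.67% of all genes), the 4 did not overlap, and the median was −0.51. Without NFATc3-MKO liver 1, 7 of the 14 were called, and none passed without any one of Lyz2-Cre livers 1, 3 and 4 or NFATc3-MKO livers 2 to 4. Clec4g, a lectin of sinusoidal cells, stood at 31.3, 24.9, 34.0 and 25.1 CPM in Lyz2-Cre and 21.5, 15.0, 16.8 and 18.6 CPM in NFATc3-MKO livers (log2 change −0.68 ± 0.19 SE, edgeR adjusted p = 0.0354). NFATc3-MKO liver 1 lay just below the lowest control. The inhibitory Fc receptor gene Fcgr2b (−0.60 ± 0.18, edgeR adjusted p = 0.0469), Ehd3, of membrane traffic (−0.55 ± 0.14, edgeR adjusted p = 0.0261), and the receptor gene Gpr182 (−0.60 ± 0.17, edgeR adjusted p = 0.0409) fell by similar amounts. Of 14 vascular endothelial markers, 1 fell (7.14%, against 4.67% of all genes), the angiopoietin receptor gene Tek (−0.77, edgeR adjusted p = 0.0271). These 5 calls were lost without 4 to 7 of the livers (up to 0.154 without Lyz2-Cre liver 3). The summed level of the sinusoidal list was 467, 423, 534 and 419 CPM in the Lyz2-Cre livers and 419.9, 287, 292 and 312 CPM in the NFATc3-MKO livers, and NFATc3-MKO livers 2 to 4 lay below all controls while liver 1 did not.

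**Figure D4:**
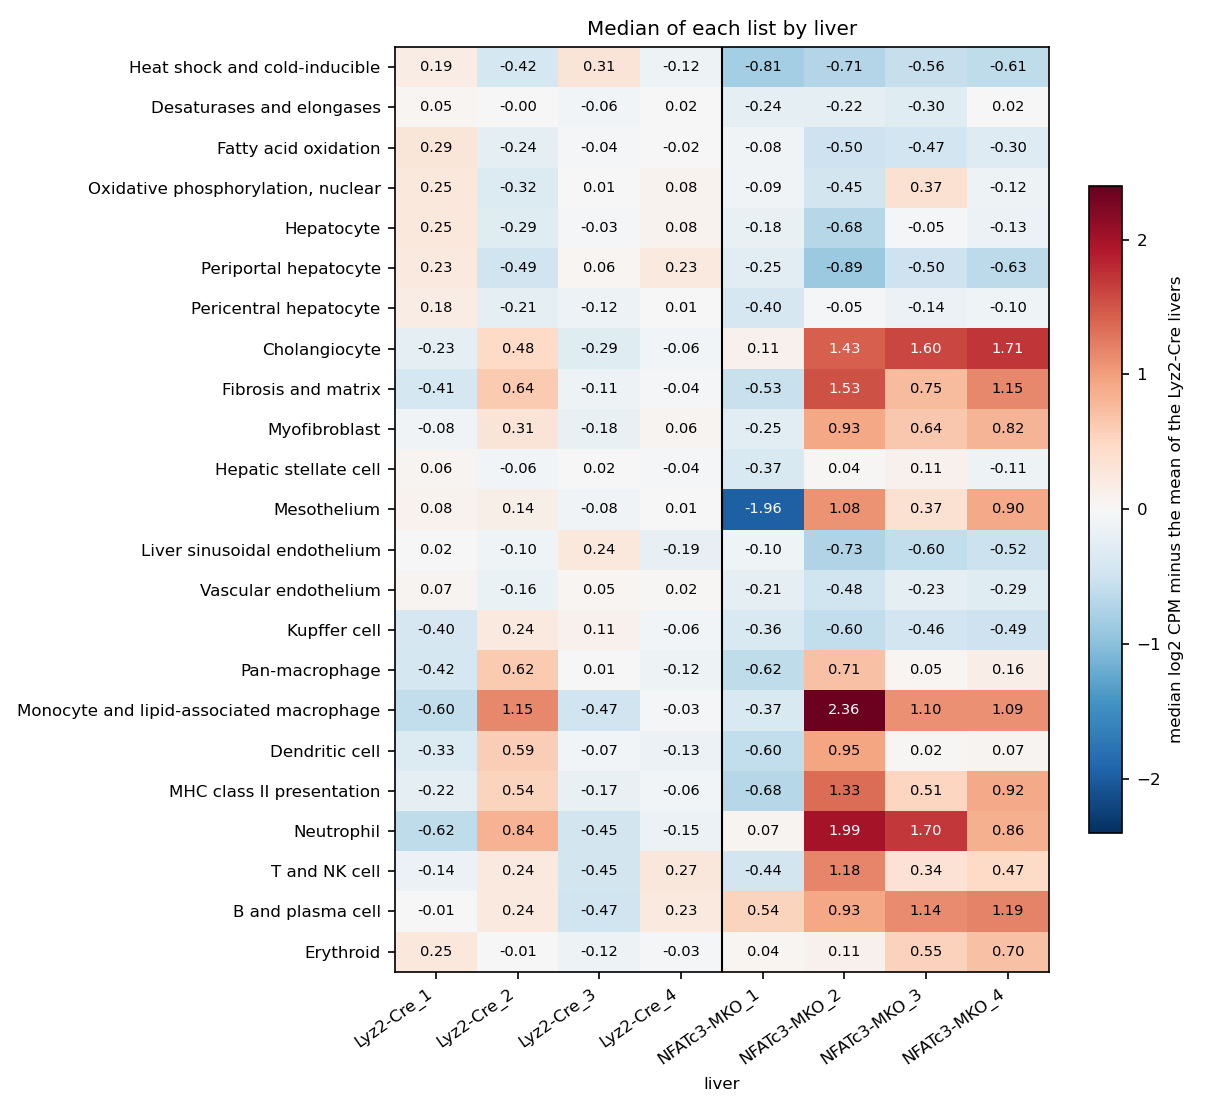
Each cell gives the median, over the tested members of a list, of log2 CPM in 1 liver minus the mean of the Lyz2-Cre livers; rows are gene lists, columns are livers, and the colour scale runs from −2.4 to 2.4. NFATc3-MKO liver 1 is with its group for heat shock and B and plasma cell genes but not for cholangiocyte, matrix, myofibroblast or monocyte and lipid-associated macrophage genes, and its mesothelial median is −1.96.

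Mesothelial cells cover the liver surface. None of 9 markers passed between groups in edgeR, DESeq2 or voom (0 at an unadjusted p under 0.05), but the livers differed. Msln, mesothelin, stood at 0.684, 1.02, 1.03 and 1.34 CPM in Lyz2-Cre and 0.0322, 2.19, 2.29 and 2.28 CPM in NFATc3-MKO livers. Upk3b, of the same cells, stood at 2.01, 2.08, 1.45 and 1.44 CPM in Lyz2-Cre and 0.0644, 3.48, 1.89 and 4.31 CPM in NFATc3-MKO livers. Both lay under the level of 3 counts (0.0966 CPM) in NFATc3-MKO liver 1 alone, where 8 of the 9 markers were below all controls. Its part in the values of that liver was not tested. Of other cell types that a liver sample could carry, 6 of 11 gallbladder and gut markers were tested. Of these, 1 fell, Tff3 (16.7%, against 4.67% of all genes), and none rose. Fewer were tested of pancreas (3 of 14), adipocyte (3 of 9), platelet (3 of 8), mast cell (2 of 8) and skeletal muscle markers (1 of 11), and none of these passed in edgeR (0, 1, 1, 1 and 0 at an unadjusted p under 0.05; 1 adipocyte marker in DESeq2 and 0 in voom). Of 7 erythroid markers, 1 rose (14.3%, against 3.77% of all genes): Bpgm, which makes bisphosphoglycerate, stood at 12.2, 11.3, 9.07 and 11.2 CPM in Lyz2-Cre and 16.7, 15.0, 16.0 and 17.9 CPM in NFATc3-MKO livers and was stable (log2 change 0.58 ± 0.12 SE, edgeR adjusted p = 0.00973).

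Cytokine and Toll-like receptor genes gave few calls, whereas interferon and acute phase genes were above the share of all genes. Called shares were 3.7% for cytokines, 4% for Toll-like receptors, 12% for interferon and 15.4% for the acute phase, against 8.45% of all genes. Of 27 cytokines and chemokines, 1 rose, the chemokine gene Cxcl14 (0.90, edgeR adjusted p = 0.0342), although 21 of 27 were higher and the median was 0.63. Of 25 Toll-like receptor and NF-kB genes, 1 fell: Irak4, the kinase below the receptors, stood at 11.5, 11.5, 11.4 and 10.8 CPM in Lyz2-Cre and 7.28, 8.66, 5.66 and 6.38 CPM in NFATc3-MKO livers (log2 change −0.69 ± 0.16 SE, edgeR adjusted p = 0.0145). The 4 controls were nearly equal and every NFATc3-MKO liver was lower. Of 25 interferon response genes, 2 rose and 1 fell. Iigp1, an interferon-induced GTPase, rose from 173 ± 29.8 to 306 ± 63.6 CPM (log2 change 0.82 ± 0.19 SE, edgeR adjusted p = 0.0148), and the ubiquitin-like modifier gene Isg15 rose (0.71, edgeR adjusted p = 0.0417), while Stat2, which carries the interferon signal, fell from 34.2 ± 3.29 to 23.5 ± 1.76 CPM (log2 change −0.54 ± 0.10 SE, edgeR adjusted p = 0.00571). Stat2 was stable; Irak4 and Iigp1 lost their calls without Lyz2-Cre liver 3 (0.0508 and 0.0665), and Isg15 and Cxcl14 lost theirs without 4 and 5 of the livers (up to 0.133 without Lyz2-Cre liver 3 and 0.107 without Lyz2-Cre liver 4). Of 26 acute phase and complement genes, 1 rose and 3 fell, and in 8 of 26 the groups did not overlap, against 12.8% of all genes. C3, on which the complement pathways converge, fell from 8017 ± 536 to 5786 ± 1073 CPM (log2 change −0.47 ± 0.14 SE, edgeR adjusted p = 0.0456), a call lost without 5 of the livers (up to 0.132 without Lyz2-Cre liver 3). Hc, which encodes complement C5 (−0.62, edgeR adjusted p = 0.046), and Serpina3n, a serpin of the acute phase (−0.49, edgeR adjusted p = 0.0391), fell, and Orm3, an orosomucoid gene, rose (1.84, edgeR adjusted p = 0.0223). These 3 calls were lost without 7, 6 and 3 of the livers (up to 0.126 without Lyz2-Cre liver 3, 0.0966 without NFATc3-MKO liver 2 and 0.0873 without Lyz2-Cre liver 3).

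In the stress lists, 26 genes of the unfolded protein and integrated stress response gave 1 that rose, the secreted endoplasmic reticulum protein gene Manf (0.99, edgeR adjusted p = 0.0429), and 1 that fell, Chac1, which degrades glutathione. The called share was 7.69%, near the 8.45% of all genes. Chac1 stood at 0.483, 14.4, 9.35 and 10.8 CPM in Lyz2-Cre and 0.451, 0.757, 1.48 and 1.18 CPM in NFATc3-MKO livers (log2 change −3.18 ± 0.93 SE, edgeR adjusted p = 0.0458). Lyz2-Cre liver 1 was as low as the NFATc3-MKO livers, and both calls were lost without 7 of the livers (up to 0.131 without Lyz2-Cre liver 4 and 0.108 without Lyz2-Cre liver 3). None of 30 nuclear genes of oxidative phosphorylation passed in edgeR, with a median of −0.05; 5 had an unadjusted p under 0.05, and DESeq2 called 0 and voom 2. In NFATc3-MKO liver 2, 26 of these 30 lay below all controls, and in liver 3, 18 lay above, so the 2 livers of 1 group went opposite ways; liver 3 also had the strongest trend with transcript length, and with the trends removed the list still had no call (median −0.15). Lysosome and phagocytosis genes (26), cell cycle genes (26), apoptosis and p53 genes (20) and immediate early genes (20) had 1 call each (3.85%, 3.85%, 5% and 5%), under the 8.45% of all genes. Tfeb, a regulator of lysosome genes (−0.50, edgeR adjusted p = 0.0385), and Mcm3, of the replicative helicase (−0.49, edgeR adjusted p = 0.0281), fell. The death receptor gene Fas (0.49, edgeR adjusted p = 0.0326) and the small Maf factor gene Maff (0.91, edgeR adjusted p = 0.0166) rose. Of 13 mitochondrial transcripts, 1 fell (7.69%, against 4.67% of all genes), mt-Nd6, the one encoded on the light strand (−0.90, edgeR adjusted p = 0.0486). Each of these 5 calls was lost without 2 to 7 of the livers (up to 0.17 without Lyz2-Cre liver 4).

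NFATc3-MKO livers differed among themselves more than controls did. The median SD of log2 CPM over genes was 0.31 in NFATc3-MKO livers and 0.22 in Lyz2-Cre livers, and it was larger in NFATc3-MKO for 71.8% of genes. A principal component analysis of the 8 livers put 40.3% of the variance on its first axis, where the Lyz2-Cre livers lay at −34.9, 5.39, −34.4 and −27.3 and the NFATc3-MKO livers at −15.7, 49.2, 33.1 and 24.5. Lyz2-Cre liver 2 therefore lay above NFATc3-MKO liver 1, and the liver closest to NFATc3-MKO liver 1 over all genes was Lyz2-Cre liver 1. NFATc3-MKO liver 3 was the farthest from its group mean for 40.8% of genes and liver 4 for 9.79%. Across genes, the deviation of NFATc3-MKO liver 3 from the mean of the controls correlated with the log2 length of each gene's longest transcript at −0.37 and with GC content at 0.24, and that of Lyz2-Cre liver 1 at −0.30 and 0.23. In the other 6 livers these correlations lay between −0.053 and 0.19 and between −0.19 and 0.084. Genes are not independent replicates. With these trends removed in each library, an alternative added after the data were seen, 1617 genes passed (616 rose, 1001 fell). Among the called genes, NFATc3-MKO liver 1 lay within the control range for 70 that rose and 49 that fell, against 15 to 18 and 13 to 34 for the other livers of its group. Lyz2-Cre liver 2 lay within the NFATc3-MKO range for 81 that rose and 67 that fell, against 9 to 30 and 2 to 28 for the other controls.

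The genes at 10 CPM or more that varied most within the NFATc3-MKO group show which livers did so. Besides Gpnmb, Col1a1, Col3a1, Mmp12 and Mmp7, they included the myeloid lectin gene Clec7a, at 6.12, 47.9, 3.29 and 15.4 CPM, and the dendritic cell and macrophage integrin gene Itgax, at 1.84, 30.9, 7.25 and 11.3 CPM, each highest in liver 2. Tgtp2, an interferon-induced GTPase, stood at 2.77, 20.1, 4.88 and 27.4 CPM, high in livers 2 and 4. Pdpr, a regulator of pyruvate dehydrogenase, stood at 28.4, 18.5, 2.26 and 15.3 CPM, low in liver 3 alone, and at 17.6, 22.1, 20.6 and 20.1 CPM in the controls. Gm20547, a predicted gene, was at 0 counts in NFATc3-MKO liver 2 and in Lyz2-Cre livers 2 and 4 and at 32.7 CPM in NFATc3-MKO liver 3. None of these but Mmp7 passed between the groups.

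**Figure D5:**
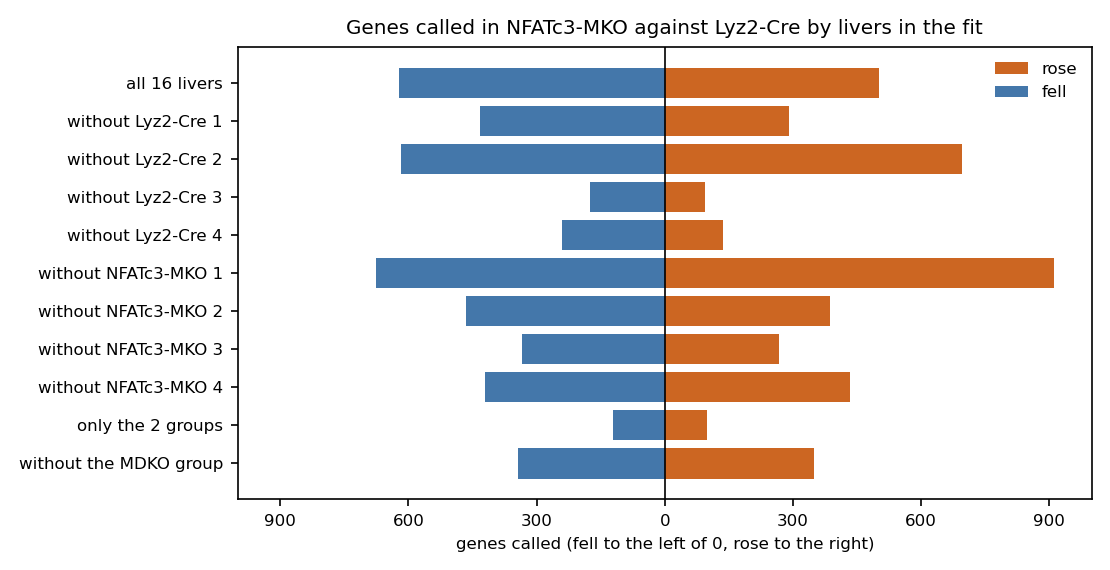
Bars give the number of genes called at an edgeR adjusted p under 0.05, with those that rose to the right of 0 and those that fell to the left, for the fit of all 16 livers, each of the 8 livers left out, only the 2 groups, and without the MDKO group. Calls run from 218 with only the 2 groups to 1585 without NFATc3-MKO liver 1.

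Calls were spread over the genome. Between 5.42% (X) and 11.3% (17) of the tested genes were called on each of the autosomes and X. Within 5 Mb of Nfatc3 on chromosome 8, 8 of 99 genes were called (8.08%), and within 10 Mb 10 of 120 (8.33%), near the share over all genes. Of those within 5 Mb, Cmtr2, an mRNA cap methyltransferase, fell from 6.05 ± 1.04 to 3.37 ± 0.423 CPM (log2 change −0.84 ± 0.17 SE, edgeR adjusted p = 0.00952). The carboxylesterase genes Ces4a and Ces3b moved in opposite directions (1.93, edgeR adjusted p = 0.0117, and −1.29, edgeR adjusted p = 0.0165). Utp4, of ribosome biogenesis (−0.46, edgeR adjusted p = 0.0224), and Vac14, of phosphoinositide metabolism (−0.40, edgeR adjusted p = 0.035), fell by small amounts. Cmtr2 and Ces4a were stable, and the other 3 lost their calls without 2, 2 and 5 of the livers (up to 0.063 without Lyz2-Cre liver 4, 0.0706 without Lyz2-Cre liver 4 and 0.115 without Lyz2-Cre liver 3).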

How the data were processed

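Per the labels' protocols, RNA was extracted with TRIzol and messenger RNA was made into strand-specific dUTP libraries; per the submitters' processing notes, HISAT2 and the mm10 build were used. Not given in the sources used here were the counting program, its annotation and its strand setting. Values in the authors' deposited table are expected counts, that is estimated counts per gene symbol; 85.4% of its values were whole, and all were rounded. The members and lists were chosen with earlier results of these data known.

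All 16 livers (total counts 8912117 to 30834547, the lowest in MDKO) were fitted with edgeR 4.0.16 in R 4.3.3: filterByExpr, TMM scaling and robust quasi-likelihood F tests, with p adjusted over 13309 genes by Benjamini-Hochberg and called under 0.05. A log2 change is NFATc3-MKO minus Lyz2-Cre, its standard error (SE) that change over the root of F, and ± after a mean CPM is the SD over 4 livers. The code was tested on simulated data. The rule for named genes took Nfatc3, the 12 largest changes each way (called, at 1 CPM or more in the higher group, no overlap), the 6 largest CPM changes each way, up to 4 called members per list by p (or the 2 most abundant), the 10 genes at 10 CPM or more with the largest SD, and 5 called genes near Nfatc3; where a list had no call, its abundant genes are printed only if the text describes them. Genes named beyond this rule (Stim2, Hspa1a, Hsp90ab1, Hsph1, Dnajb1, Rbm3, Tsc22d3, Elovl3, Fasn, Zhx2, Alb, Cldn7, Trem2, Timd4, Vsig4, Msln, Upk3b and other clock genes) were chosen after their values were seen. Some genes that the rule gave are not reported here. The lists number 32 pathways, 23 cell types and 1 of mitochondrial transcripts, and 26 genes are in more than 1. Positions came from GENCODE M21 (17116 of 17752 genes matched). Alternatives used DESeq2 1.42.0 and limma 3.58.1.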

Additional observations from a re-analysis of the deposited data

Results flagged for a closer look

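In 27 of 334 sets of 4 livers (167 genes, each in both groups), the highest or lowest liver stood apart from the other 3. Its gap to the nearest passed Dixon's 95% critical value. Some of these genes, such as Gpnmb and Mmp12, were picked for their large spread in NFATc3-MKO livers. Others were picked after their values were seen, so the count of sets cannot be compared with chance. Of the 27 sets, NFATc3-MKO liver 3 accounted for 6 and Lyz2-Cre liver 2 for 7. Values are CPM, with the range of the other 3 livers of the group in parentheses. In Lyz2-Cre liver 1, Stim2 stood at 19.2 (29.0 to 30.3), Apom at 204 (151 to 158) and Zfp454 at 1.97 (0.722 to 0.935). In the same liver, Cmtr2 stood at 4.50 (6.37 to 6.76). In Lyz2-Cre liver 2, Socs3 stood at 5.35 (2.73 to 3.18), Lox at 1.66 (0.374 to 0.516) and Epcam at 3.87 (2.68 to 2.71). In the same liver, Cldn4 stood at 1.32 (0.413 to 0.468), Gpnmb at 73.4 (6.56 to 14.2) and S100a8 at 3.74 (0.421 to 0.885). In the same liver, S100a9 stood at 4.16 (0.982 to 1.5). In Lyz2-Cre liver 4, Manf stood at 48.1 (77.4 to 81.3) and Irak4 at 10.8 (11.4 to 11.5). In NFATc3-MKO liver 1, Slco1a1 stood at 5.70 (0.870 to 1.32), C6 at 19.4 (14.0 to 14.7) and Txnip at 325 (158 to 176). In the same liver, Msln stood at 0.0322 (2.19 to 2.29). In NFATc3-MKO liver 2, Gpnmb stood at 386 (13.2 to 70.1) and Mmp12 at 275 (17.8 to 58.8). In NFATc3-MKO liver 3, Nfatc3 stood at 19.6 (30.9 to 31.5), Dnaja1 at 234 (279 to 280.4) and Hspb1 at 6.36 (2.87 to 3.42). In the same liver, Dbp stood at 67.5 (47.8 to 50.1), Sult2a1 at 7.29 (1.45 to 2.27) and Isg15 at 22.2 (11.7 to 12.8). In NFATc3-MKO liver 4, Hspa1b stood at 17.7 (6.76 to 8.25) and Fads2 at 985 (670.1 to 704).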

How the results depend on the processing

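Of the 16 alternatives planned and 1 added after seeing the data, none reversed the sign of a called gene. With 1 liver left out, the calls ran from 268 to 1585, those that rose from 94 to 910 and those that fell from 174 to 675, and the log2 change of Nfatc3 from −0.43 to −0.22. The counts moved by over 1.5 times without Lyz2-Cre livers 1, 3 and 4 (722, 268 and 377) and NFATc3-MKO liver 3 (602); without NFATc3-MKO liver 1, 910 rose. With only the 2 groups 218 were called (98 rose, 120 fell), every one also called with all 16 livers, and without the MDKO group 694 (350 rose, 344 fell). DESeq2's Wald test called 1719 (829 rose) and voom with quality weights 2613 (1337 rose, 1276 fell). Nfatc3 passed with voom (−0.31, limma adjusted p = 0.0419) and after trends with GC content and length were removed in each library (−0.32, edgeR adjusted p = 0.0302), where 1001 genes fell; its adjusted p in the other settings is above 0.05. With DESeq2's size factors 1105 were called, with no filter 885 and at a mean of 1 CPM 1091. With 1 liver left out, Clec7a ran from −0.64 (without NFATc3-MKO liver 2) to 1.10 and Pdpr from −0.73 to 0.045 (without NFATc3-MKO liver 3), and neither passed. A fit with the replicate number as a block called 1543 genes (716 rose, 827 fell); of the named genes it ended the calls of Hspa1a, Hspa1b, Loxl1, Cldn7, Ighg1, Isg15, Hc and mt-Nd6 (edgeR adjusted p from 0.0501 to 0.0662). Same-numbered livers did not all deviate together (correlations 0.23, 0.56, −0.21 and −0.02), and only number 2 correlated best with its own number, so the numbers were not used as pairs. Between Lyz2-Cre and MDKO livers the same correlations were 0.53, 0.51, 0.26 and 0.24. Depth limits genes near 3 counts, which is 0.0966 to 0.155 CPM in these livers.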

Other observations

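Of the genes for RNA-binding proteins among the stable calls, 8 were picked after their values were seen, 5 that rose and 3 that fell, so their numbers say nothing of the group as a whole. Hnrnpl, which binds CA-rich RNA and steers splicing, stood at 40.1, 40.3, 20.3 and 28.8 CPM in Lyz2-Cre and 95.6, 72.3, 96.9 and 68.4 CPM in NFATc3-MKO livers (log2 change 1.36 ± 0.22 SE, edgeR adjusted p = 0.00321). Every NFATc3-MKO liver lay above every control, and Lyz2-Cre liver 3 was the lowest of all. Hnrnpdl, another RNA-binding hnRNP gene, stood at 27.1, 28.3, 15.7 and 25.6 CPM in Lyz2-Cre and 84.6, 56.8, 64.9 and 40.8 CPM in NFATc3-MKO livers (log2 change 1.35 ± 0.23 SE, edgeR adjusted p = 0.00377), again with liver 3 the lowest control. Srsf2, an SR splicing factor, rose from 43.5 ± 4.36 to 77.9 ± 12.5 CPM (log2 change 0.84 ± 0.15 SE, edgeR adjusted p = 0.00521). Ptbp1, the polypyrimidine tract protein, rose from 55.8 ± 9.41 to 91.0 ± 11.0 CPM (log2 change 0.71 ± 0.13 SE, edgeR adjusted p = 0.00667), and its mainly neuronal relative Ptbp2 rose from 4.72 ± 1.10 to 11.3 ± 2.13 CPM (log2 change 1.25 ± 0.24 SE, edgeR adjusted p = 0.00709). In all 5 the groups did not overlap. The 3 that fell were Ythdc1 (log2 change −1.29, edgeR adjusted p = 0.00321), Rbm15 (−1.30, edgeR adjusted p = 0.00235) and Zfp36l1 (−0.87, edgeR adjusted p = 0.00299).

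Tcf24, a basic helix-loop-helix gene outside the rule for named genes, fell from 4.74 ± 1.14 to 1.35 ± 0.845 CPM (log2 change −1.82 ± 0.33 SE, edgeR adjusted p = 0.00605) and was stable.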
